A study of Saccharomyces cerevisiae with 10 samples.

Results

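The small-subunit processome and the factors of 18S rRNA processing were followed as 50 genes of Saccharomyces cerevisiae, chosen by a fixed list of gene symbols, of 6377 features measured on the arrays. The processome is the large particle that forms on nascent pre-rRNA in the nucleolus and from which the small ribosomal subunit is made. Its UTP-A, UTP-B and UTP-C subcomplexes, the U3 box C/D snoRNP, GTPases and RNA helicases fold and cut the transcript, and later pre-40S factors finish the 3′ end of 18S rRNA in the cytoplasm. In yeast the genes of these factors belong to the ribosome biogenesis group, which cells are known to lower together when growth slows or stress is sensed. All 50 symbols were found, each with 1 reporter printed in 2 spots per array.

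Each of 10 spotted arrays compared RNA of 1 strain with RNA of a common reference pool, and every strain had 2 arrays, a and b, with opposite dyes. The groups were Epl1 1:380 and Epl1 1:485, both FLAG-tagged truncations of Epl1, and FLAG-tagged Epl1 itself (called tagged Epl1 here), an eaf1 deletion, and Eaf1 1:982 with an HA tag. Epl1 and Eaf1 are subunits of NuA4, the yeast acetyltransferase complex for histones H4 and H2A. The catalytic subunit, Esa1, is held by Epl1 in the smaller piccolo NuA4, and Eaf1 is the platform on which the other modules of NuA4 gather. The numbers in the strain names are read here as the first and last residue kept. The gene table gives EPL1 832 codons and EAF1 982, so a fragment 1:982 spans the whole of Eaf1, although its label calls it a C-terminal truncation. It served as the tagged strain beside the deletion. The title of the deletion sample names an HA tag and its source label does not. No untagged wild-type strain is among the samples, and nothing in the labels says that the 2 arrays of a strain came from separate cultures, and a p-value here reflects only the spread between arrays, which may be technical.

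Values are log2 ratios of strain over pool, each relative to the bulk of genes on its array, and a difference is the mean of one strain minus that of another. Each array measured RNA of a whole culture, so fewer cells with a transcript and less transcript per cell cannot be told apart. All 1000 member spot readings lay above background in both channels. By mean signal the members stood between the 42.9th and the 95.6th percentile of all features, with a median at the 72.8th. The absolute difference between the 2 spots of a member had a median of 0.04 on the log2 scale. The targeted genes were read first. EAF1 had log2 ratios of -2.00 and -2.14 in the deletion, against 0.74 and 0.54 in Eaf1 1:982. EPL1, of which the truncated strains keep the gene's first part, was higher in Epl1 1:380 (0.38) and in Epl1 1:485 (0.50) than in tagged Epl1 and higher in the deletion than in Eaf1 1:982 (0.51), all as log2 differences that passed the test. A reporter outside a removed part of EPL1 checks no truncation.

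The members were low in all 3 mutant strains and near the pool in both tagged strains. The median log2 ratio over the 50 members was -0.49 and -0.45 on the Epl1 1:380 arrays, -0.37 and -0.39 on the Epl1 1:485 arrays, and 0.04 and 0.06 on the tagged Epl1 arrays. In the second pair of strains it was -0.28 and -0.30 on the deletion arrays, against -0.01 and 0.05 on the Eaf1 1:982 arrays. For 40 members, all 6 mutant arrays lay below all 4 arrays of tagged strains, which 17.6% of all features did. By strain means, Epl1 1:380 was the lowest of the 5 strains for 40 members, against 20% of all features. The eaf1 deletion was the lowest for 6 (UTP13, RRP9, DHR2, UTP30, SOF1 and NOB1), against 23.2% of all features. Epl1 1:485 was the lowest for 2 (UTP6 and RRP7), against 13.9%, and Eaf1 1:982 for 2 (UTP18 and UTP22), against 19%. The full order of Epl1 1:380 below Epl1 1:485 below the deletion below both tagged strains was seen for 28 members, and for 9.72% of all features.

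**Figure D1:**
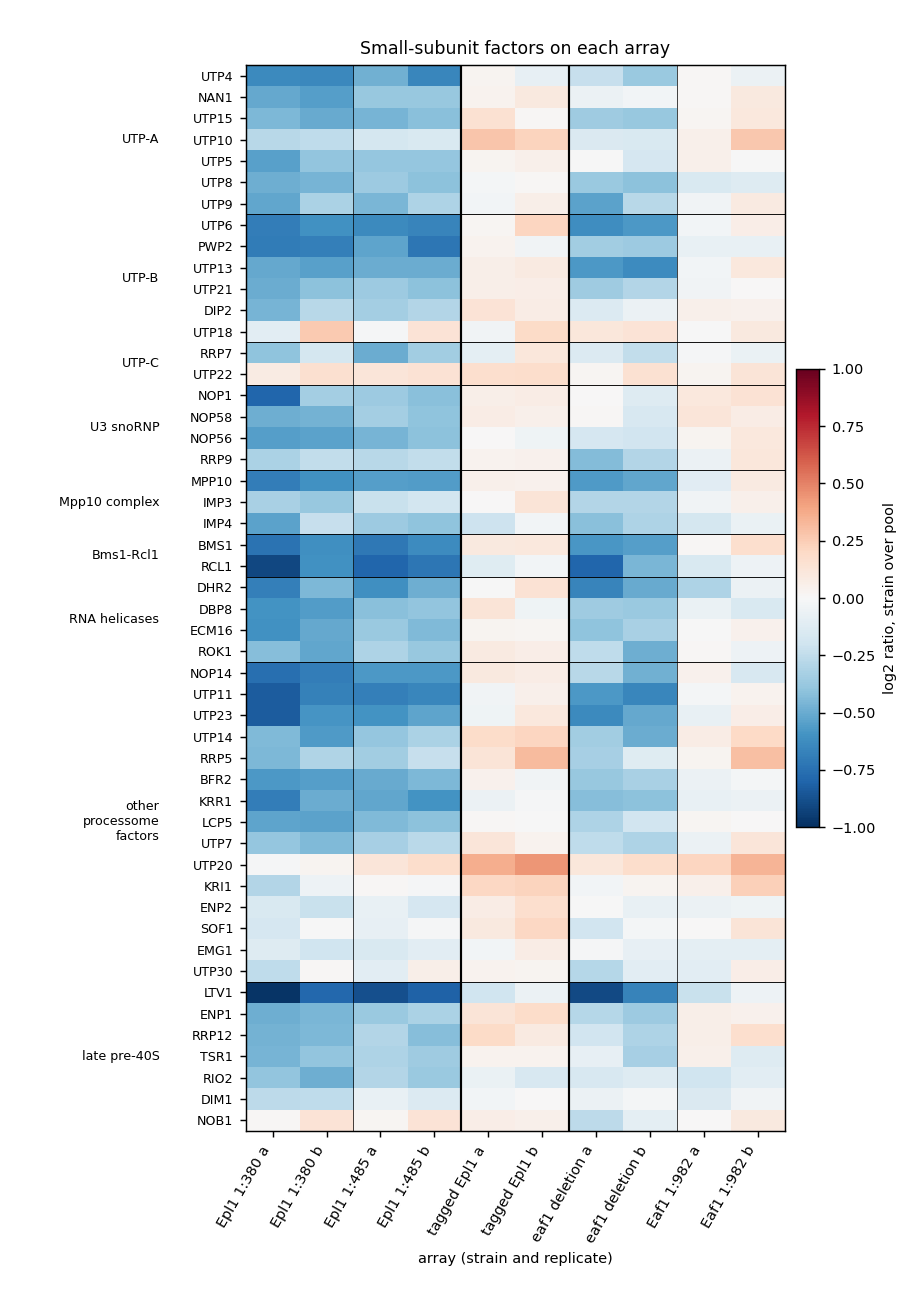
Log2 ratio of strain over pool for each of the 50 genes (rows, grouped by complex) on each of the 10 arrays (columns, replicates a and b); blue is below the pool and red above it. The columns of Epl1 1:380, Epl1 1:485 and the eaf1 deletion are blue for most genes. Some genes, among them UTP18, UTP20, UTP22 and NOB1, stay pale or red in the Epl1 truncations. UTP20 still fell relative to tagged Epl1, where it is redder.

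The shorter Epl1 fragment was compared with its tagged full-length control to see which members changed when Epl1 ended at residue 380. In Epl1 1:380, 45 of the 50 members fell relative to tagged Epl1 and 0 rose (adjusted p under 0.05 with limma), while 19.1% of all features were lower and 21.7% higher. The median member difference was -0.54, with a range from -0.81 to 0.01, against 0.01 over all features. The arrays of Epl1 1:380 lay below those of tagged Epl1 without overlap for 48 members, and for 34.7% of all features. Past a fold of 1.7, the limit named in the series' design text, were NOP14 and BMS1, 2 members, with 1.05% of all features lower past it. The members on either side of that limit were close together: BMS1 was 1.72-fold lower, UTP6 1.70-fold and UTP11 1.70-fold. IMP4, UTP30, UTP22, UTP18 and NOB1 did not pass.

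NOP14 encodes a processome protein that partners the methyltransferase Emg1. It had log2 ratios of -0.75 and -0.69 in Epl1 1:380, against 0.09 and 0.07 in tagged Epl1. Its difference of -0.81 (SE 0.08, adjusted p = 0.000115), 1.75-fold lower, was the largest among the members in this comparison. BMS1 encodes the GTPase that brings Rcl1 into the particle. It read -0.74 and -0.62 in Epl1 1:380, against 0.10 and 0.10 in tagged Epl1, a difference of -0.78 (SE 0.07, adjusted p = 5.5e-05). RCL1, its cyclase-like partner, read -0.91 and -0.60 in Epl1 1:380 and -0.12 and -0.02 in tagged Epl1. The 2 genes of this pair thus fell by similar sizes, RCL1 by 0.68 on the log2 scale (adjusted p = 0.00221). UTP11, a processome factor, had -0.83 and -0.68 in Epl1 1:380, against -0.04 and 0.05 in tagged Epl1, and a difference of -0.76 (SE 0.07, adjusted p = 4.81e-05).

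All 7 genes of UTP-A, the subcomplex that meets the 5′ end of the transcript first, fell in Epl1 1:380, and in a narrow range of differences from -0.61 to -0.44. UTP4, the lowest of them, had -0.64 and -0.64 in Epl1 1:380, against 0.02 and -0.08 in tagged Epl1 (difference -0.61, SE 0.08, adjusted p = 0.000296). NAN1, also called Utp17, had a difference of -0.60 and UTP9 one of -0.44. UTP-B, a scaffold of WD40 and HAT-repeat proteins, was less even: 5 of its 6 genes fell. UTP6 read -0.69 and -0.60 in Epl1 1:380, against 0.02 and 0.22 in tagged Epl1, and differed by -0.76 (SE 0.07, adjusted p = 7.89e-05). PWP2 (-0.69), UTP13 (-0.60), UTP21 (-0.52) and DIP2 (-0.48) fell as well. UTP18, the UTP-B subunit that recruits the helicase Mtr4, had 2 arrays far apart, -0.11 and 0.26 in Epl1 1:380 and -0.04 and 0.19 in tagged Epl1. Its strains overlapped, with a difference of 0.00 and a 95% interval from -0.27 to 0.27, which leaves room for a change as large as that of several members that fell.

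UTP-C held 1 gene that fell and 1 that did not pass. RRP7 read -0.40 and -0.18 in Epl1 1:380, against -0.10 and 0.11 in tagged Epl1 (difference -0.30, SE 0.10, adjusted p = 0.0340). UTP22, which like RRP7 encodes a UTP-C subunit, read 0.08 and 0.16 in Epl1 1:380 and 0.17 and 0.17 in tagged Epl1. Its difference of -0.05 had a 95% interval from -0.19 to 0.09, so a fall of the median member's size lay outside the interval. All 4 listed protein genes of the U3 snoRNP fell. NOP1, which encodes fibrillarin, the 2′-O-methyltransferase of box C/D snoRNPs, read -0.80 and -0.34 in Epl1 1:380, against 0.06 and 0.07 in tagged Epl1. The 2 arrays of Epl1 1:380 were far apart for NOP1, and its difference of -0.63 had an SE of 0.12 (adjusted p = 0.00312). NOP58 (-0.55) and NOP56 (-0.52), further core proteins of box C/D snoRNPs, differed by more than RRP9 (-0.32), the WD40 protein particular to U3. The differences between genes were not tested.

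The Mpp10 complex, which joins U3 to the pre-rRNA, had 2 of 3 genes lower. MPP10 read -0.69 and -0.61 in Epl1 1:380, against 0.05 and 0.05 in tagged Epl1 (difference -0.70, SE 0.07, adjusted p = 0.000111). IMP3 fell by 0.42 on the log2 scale. IMP4 read -0.54 and -0.23 in Epl1 1:380, against -0.21 and -0.03 in tagged Epl1; its difference of -0.27 gave an adjusted p of 0.0657, and of 0.0157 with the replicate letter as a block. Of the RNA helicases all 4 fell, within -0.64 and -0.55: DHR2 and ECM16 (Dhr1, which removes U3) of the DEAH-box kind, and ROK1 and DBP8 of the DEAD-box kind. DHR2 had -0.68 and -0.45 in Epl1 1:380, against 0.00 and 0.15 in tagged Epl1, a difference of -0.64 (SE 0.11, adjusted p = 0.00175).

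Of the 15 other processome factors, 14 fell in Epl1 1:380. Below -0.55 were NOP14, UTP11, UTP23, UTP14, RRP5, BFR2 and KRR1, the last a KH-domain protein. UTP14, the activator of the helicase Dhr1, differed by -0.70 and UTP23, a PIN-domain-like protein linked to snR30, by -0.74. SOF1 (-0.24) and EMG1 (-0.18) passed with smaller differences. UTP30, a processome protein that is not essential, did not pass (-0.15, adjusted p = 0.271). UTP20 stood apart in level but not in its fall: it was above the pool in tagged Epl1 (0.36 and 0.44), near it in Epl1 1:380 (-0.02 and 0.02), and fell by 0.40 on the log2 scale.

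The late pre-40S factors differed widely among themselves. LTV1, a non-essential pre-40S factor, read -0.98 and -0.79 in Epl1 1:380, against -0.20 and -0.06 in tagged Epl1, and fell by 0.75 on the log2 scale (SE 0.10, adjusted p = 0.000477). ENP1 (-0.63), RRP12 (-0.61), TSR1 (-0.46), RIO2 (-0.33) and DIM1 (-0.25) fell too. NOB1, the endonuclease that makes the 3′ end of 18S rRNA, read 0.01 and 0.13 in Epl1 1:380, against 0.07 and 0.05 in tagged Epl1. Its difference was the highest of the members, at 0.01 (95% interval from -0.16 to 0.18), and its arrays overlapped.

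**Figure D2:**
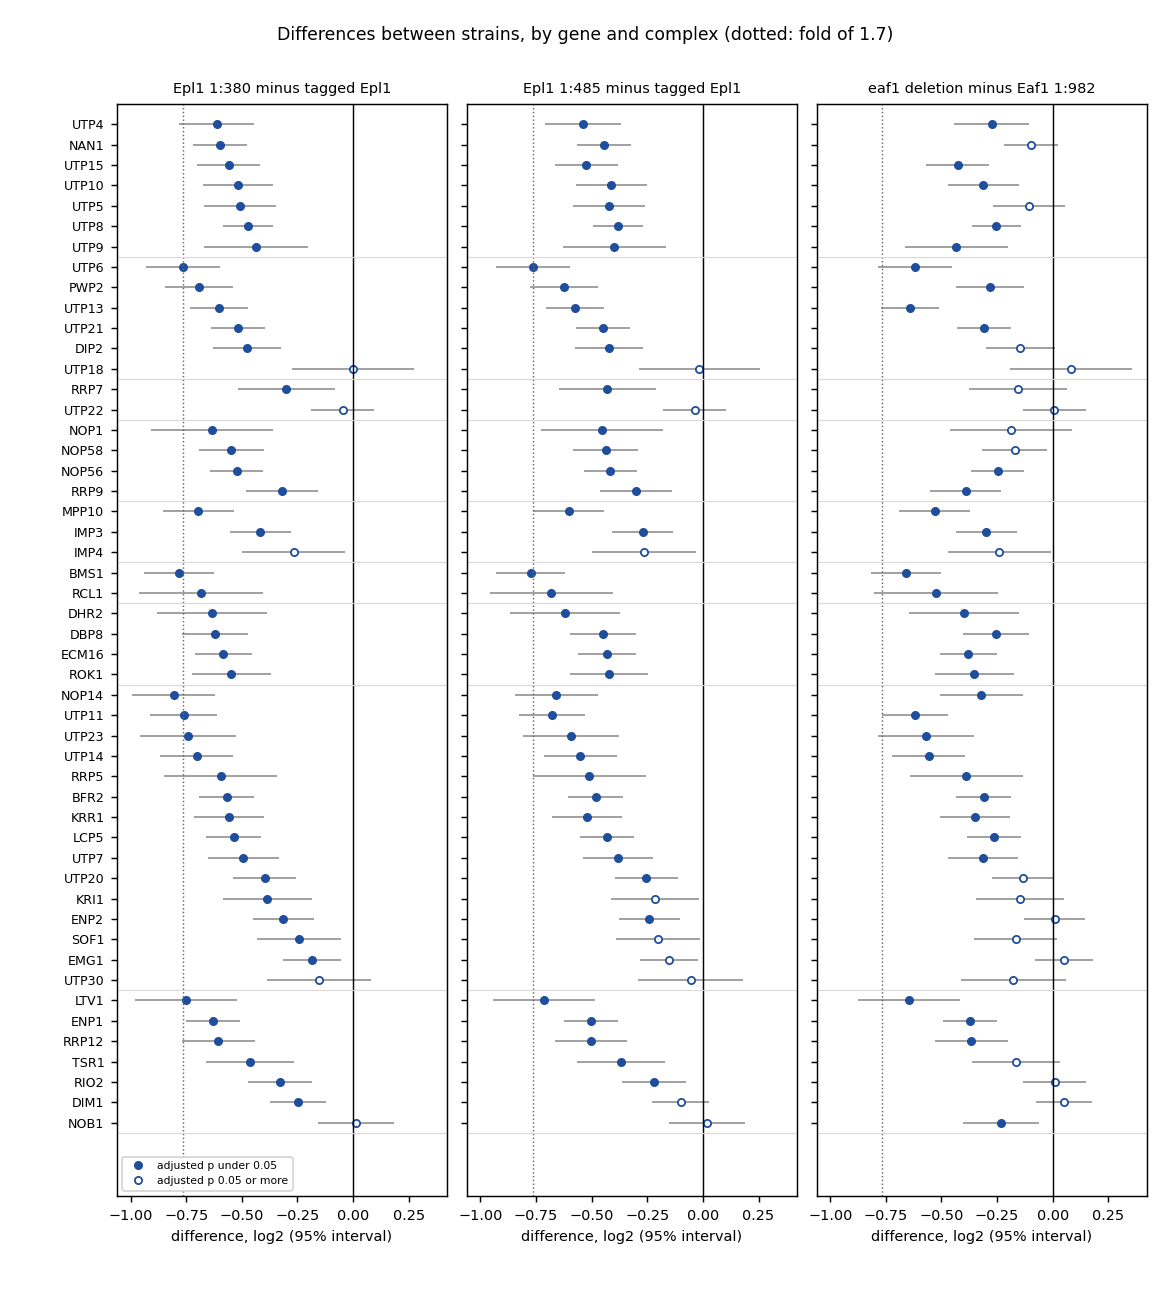
Differences of mean log2 ratio with 95% intervals for the 50 genes in 3 comparisons (panels); filled points passed at an adjusted p under 0.05 and the dotted line marks a 1.7-fold fall. Filled points are 45 for Epl1 1:380, 41 for Epl1 1:485 and 32 for the eaf1 deletion, all left of 0.

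Calls in this comparison depended on how ratios were made from the scans. From scanner intensities with normexp background correction, without the authors' correction of gene-specific dye bias, 29 members were lower. With print-tip loess alone 31 were lower, and 27 of the 45 passed in both and whichever array was left out. All-feature shares under the scanner settings are not given here or below. The drop from 45 is thus not shown to be particular to the members. UTP9, RRP7, SOF1, EMG1 and KRI1 lost their calls without Epl1 1:380 replicate a, EMG1 without replicate b, SOF1 without tagged Epl1 replicate a, and UTP9, RRP7, SOF1 and EMG1 without tagged Epl1 replicate b, with adjusted p from 0.0507 to 0.244. RNA of Epl1 1:380 replicate b was isolated, per its label, by the protocol used for the pool and not by that of the other strain channels; without that array 45 members were lower and their median was -0.56.

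In Epl1 1:485, 41 of the 50 members fell relative to tagged Epl1 and 0 rose, with 17.6% of all features lower and 19.4% higher. These are the same tagged Epl1 arrays as before, so the 2 comparisons are not independent. The median difference was -0.43, with a range from -0.77 to 0.02, and 47 members had arrays below those of tagged Epl1 without overlap, as 35% of all features had. Of the members only BMS1, 1.71-fold lower, was past the fold of 1.7, with 0.69% of all features lower past it. IMP4, KRI1, SOF1, EMG1, DIM1, UTP30, UTP22, UTP18 and NOB1 did not pass, and of these IMP4, SOF1, EMG1 and KRI1 passed with the replicate letter as a block (adjusted p from 0.00788 for SOF1 to 0.0499 for EMG1).

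BMS1 read -0.72 and -0.63 in Epl1 1:485, against 0.10 and 0.10 in tagged Epl1, a difference of -0.77 (SE 0.07, adjusted p = 8.76e-05). UTP6 read -0.64 and -0.66 in Epl1 1:485, against 0.02 and 0.22 in tagged Epl1, a difference of -0.76 (adjusted p = 0.000110). LTV1 read -0.88 and -0.81 in Epl1 1:485, against -0.20 and -0.06 in tagged Epl1, a difference of -0.71 (adjusted p = 0.000765). The arrays of these 3 genes did not overlap between the strains. RCL1 read -0.79 and -0.72 in Epl1 1:485, against -0.12 and -0.02 in tagged Epl1, a difference of -0.68 (adjusted p = 0.00260). At the other end, NOB1 had 0.02 and 0.14 in Epl1 1:485, against 0.07 and 0.05 in tagged Epl1, and a 95% interval of the difference from -0.15 to 0.19. UTP18 had -0.01 and 0.14 in Epl1 1:485, against -0.04 and 0.19 in tagged Epl1.

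By complex, all 7 UTP-A genes, 5 of 6 UTP-B genes and 1 of 2 UTP-C genes (RRP7, -0.43) fell in Epl1 1:485. So did all 4 listed U3 snoRNP genes, 2 of 3 Mpp10 complex genes, both of Bms1-Rcl1 and all 4 helicases. Of the other processome factors 11 of 15 fell, and of the late pre-40S factors 5 of 7. From scanner intensities with normexp, 23 members were lower, and with print-tip loess 28. Calls were lost without Epl1 1:485 replicate a (UTP9, RRP7, NOP1, RRP9 and UTP20), without replicate b (NOP1, ENP2, TSR1 and RIO2), without tagged Epl1 replicate a (NOP1, TSR1 and RIO2) and without tagged Epl1 replicate b (UTP9, RRP7, NOP1, RRP9, IMP3, UTP20, RRP5, ENP2 and TSR1), with adjusted p from 0.0509 to 0.143.

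The 2 truncations were then compared with each other, which asks whether the stretch of Epl1 kept in the longer fragment alone matters for these genes. In this comparison 0 members passed with limma, and 0% of all features did so. An unadjusted p under 0.05 was held by 7 members, all lower in Epl1 1:380, and by 183 of 6377 features, 76 of them lower. The difference was negative for 47 of 50 members, with a median of -0.09, and for 3092 of 6377 features. The arrays of Epl1 1:380 lay below those of Epl1 1:485 without overlap for 24 members, against 12.7% of all features. NOP1 had the lowest value, with -0.80 and -0.34 in Epl1 1:380, against -0.36 and -0.42 in Epl1 1:485, and a difference of -0.18 (95% interval from -0.45 to 0.10). That difference was carried by Epl1 1:380 replicate a. DBP8 read -0.60 and -0.56 in Epl1 1:380, against -0.42 and -0.39 in Epl1 1:485, a difference of -0.17 (95% interval from -0.32 to -0.02). NAN1 read -0.51 and -0.55 in Epl1 1:380, against -0.38 and -0.38 in Epl1 1:485, a difference of -0.15 (95% interval from -0.27 to -0.03). For DBP8 and NAN1 the arrays of the 2 strains did not overlap, but the adjusted p was 0.9999 for each. KRI1 differed by -0.17 (95% interval from -0.37 to 0.03).

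Some members had nearly the same value in both truncations. BMS1 differed between them by -0.01 (95% interval from -0.16 to 0.15), UTP6 by 0.00 (from -0.16 to 0.17) and RCL1 by 0.00 (from -0.28 to 0.28). UTP18 differed by 0.02. RRP7 was the highest, with -0.40 and -0.18 in Epl1 1:380, against -0.50 and -0.34 in Epl1 1:485, and a difference of 0.13 (95% interval from -0.09 to 0.35). The intervals do not show that the truncations act alike. The median difference ran from -0.12 without Epl1 1:380 replicate b to -0.05 without replicate a.

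In the eaf1 deletion, 32 of the 50 members fell relative to Eaf1 1:982 and 0 rose, with 15.8% of all features lower and 17.8% higher. This comparison shares no array with those of Epl1. The median difference was -0.29, with a range from -0.66 to 0.08. The deletion arrays lay below those of Eaf1 1:982 without overlap for 42 members, against 31.5% of all features. They lay above those of Eaf1 1:982 without overlap for EMG1 and UTP18, against 2125 of 6377 features. 0 members were past the fold of 1.7, with 0.612% of all features lower past it.

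BMS1 was again the lowest: it read -0.58 and -0.55 in the deletion, against 0.01 and 0.17 in Eaf1 1:982, and differed by -0.66 (SE 0.07, adjusted p = 0.000187). LTV1 read -0.90 and -0.67 in the deletion, against -0.23 and -0.05 in Eaf1 1:982, a difference of -0.65 (SE 0.10, adjusted p = 0.00144). UTP13, a WD40 protein of UTP-B, read -0.58 and -0.63 in the deletion, against -0.03 and 0.10 in Eaf1 1:982, and fell by 0.64 on the log2 scale (SE 0.06, adjusted p = 8.88e-05). For UTP13 the difference was close to that in Epl1 1:380 (-0.60). UTP11 read -0.57 and -0.66 in the deletion, against -0.02 and 0.03 in Eaf1 1:982, a difference of -0.62 (SE 0.07, adjusted p = 0.000189). UTP6 (-0.62), UTP23 (-0.57), UTP14 (-0.56), MPP10 (-0.53) and RCL1 (-0.52) completed the members below -0.5.

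By complex, 5 of 7 UTP-A genes fell in the deletion (NAN1 and UTP5 did not pass). For UTP-B it was 4 of 6 (DIP2 and UTP18 did not pass), for UTP-C 0 of 2 and for the listed U3 snoRNP genes 2 of 4. Also lower were 2 of 3 genes of the Mpp10 complex, both of Bms1-Rcl1 and all 4 helicases. Of the other processome factors 9 of 15 fell, and of the late pre-40S factors 4 of 7. In the U3 snoRNP, RRP9 (-0.39) and NOP56 (-0.25) passed and NOP1 (-0.19) and NOP58 (-0.17) did not. With the replicate letter as a block, IMP4, NOP58, UTP20 and SOF1 passed as well. DIM1, the dimethylase of adenosines near the 3′ end of 18S rRNA, read -0.06 and -0.02 in the deletion, against -0.15 and -0.03 in Eaf1 1:982, and UTP18 read 0.12 and 0.14 in the deletion, against 0.00 and 0.10 in Eaf1 1:982. Their differences of 0.05 and 0.08 did not pass, with 95% intervals from -0.08 to 0.18 and from -0.19 to 0.35. NOB1 passed in this comparison: it read -0.26 and -0.10 in the deletion, against 0.00 and 0.10 in Eaf1 1:982, a difference of -0.23 (SE 0.08, adjusted p = 0.0416).

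The NOB1 call was lost without deletion replicate a (adjusted p = 0.204), without Eaf1 1:982 replicate a (0.0689) and without Eaf1 1:982 replicate b (0.214), and from scanner intensities with normexp (0.207). From scanner intensities, 12 members were lower with normexp and 15 with print-tip loess, and 9 of the 32 passed in both and whichever array was left out: UTP15, UTP6, UTP13, BMS1, ECM16, UTP14, UTP23, BFR2 and LTV1. Besides NOB1, calls were lost without deletion replicate a (UTP9, RCL1, DHR2 and RRP5), without deletion replicate b (UTP4, DBP8 and NOP14), without Eaf1 1:982 replicate a (UTP4, PWP2, ROK1, DBP8 and NOP14) and without Eaf1 1:982 replicate b (UTP4, UTP9, UTP10, PWP2, NOP56, RCL1, DHR2, UTP7 and RRP5), with adjusted p from 0.0507 to 0.182.

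Centring each array on its added RNA controls, from scanner intensities with no loess, raised the median of all features by 0.29 in Epl1 1:380, 0.20 in Epl1 1:485 and 0.27 in the deletion. The member medians were then -0.38, -0.37 and -0.12, which is -0.67, -0.57 and -0.38 relative to all features. In that setting 0 members passed with limma in each of the 3 comparisons, and 5, 2 and 0 had an unadjusted p under 0.05. All-feature counts in that setting are not given. The loss of calls is thus not shown to be particular to the members.

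The effect of Epl1 1:380 was next set against that of the deletion, gene by gene, since the 2 effects share no array. Both effects were falls that passed for 31 members. In Epl1 1:380 alone 14 passed, in the deletion alone NOB1, and in neither 4. Of all features 19.1% were lower in Epl1 1:380 and 15.8% in the deletion. The same split was not counted over all features. The effect of Epl1 1:380 was the lower of the 2 for 46 of 50 members and for 3238 of 6377 features. Over the members the median ratio of the deletion effect to the Epl1 1:380 effect was 0.601. Across the 50 members, which are not independent replicates and share both sets of arrays, the effects correlated with r = 0.733 and rho = 0.737, and across all 6377 features with r = 0.744. The value over the members was thus close to that over all features.

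**Figure D3:**
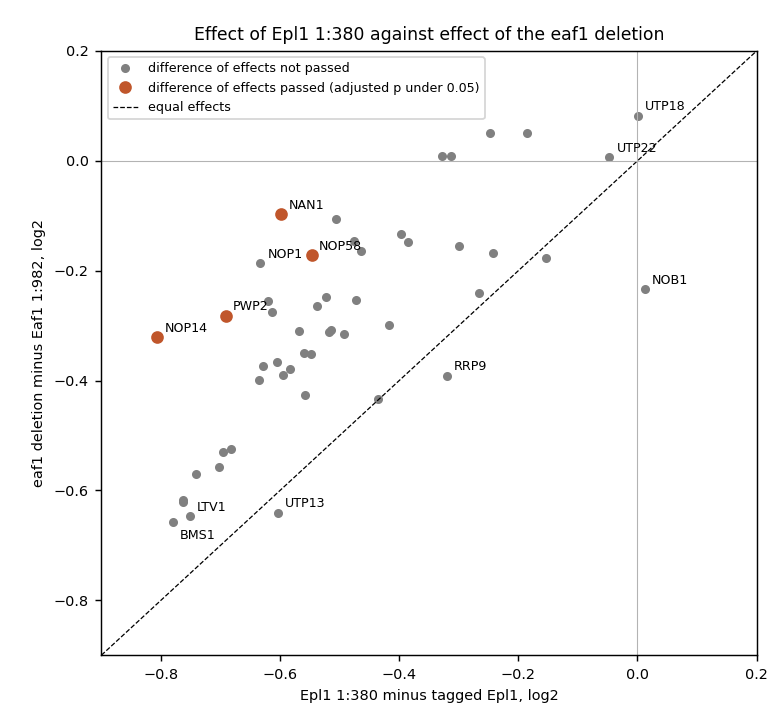
Difference of Epl1 1:380 from tagged Epl1 (horizontal axis, log2) against the difference of the eaf1 deletion from Eaf1 1:982 (vertical axis, log2) for the 50 genes; the dashed line marks equal effects. Most points lie above the line, where the fall in Epl1 1:380 is the larger one; NAN1, NOP14, PWP2 and NOP58 (orange) passed the test of the difference, and NOB1 and UTP13 lie below the line.

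The test of the difference between the effects was passed by 4 members, all with the larger fall in Epl1 1:380, with 2.49% of all features passing in that direction and 3.36% in the other. The median of this difference was -0.21 over the members. NAN1 had the largest one: it fell by 0.60 on the log2 scale in Epl1 1:380, while in the deletion its arrays read -0.06 and -0.03, against 0.01 and 0.10 in Eaf1 1:982, a difference of -0.10. The difference between its effects was -0.50 (SE 0.07, adjusted p = 0.00712). NOP14 had effects of -0.81 in Epl1 1:380 and -0.32 in the deletion, where it read -0.28 and -0.48, against 0.05 and -0.16 in Eaf1 1:982. Its effects differed by -0.49 (SE 0.12, adjusted p = 0.0464). PWP2, the WD40 scaffold of UTP-B, had effects of -0.69 and -0.28, which differed by -0.41 (SE 0.10, adjusted p = 0.0417), and NOP58 had effects of -0.55 and -0.17, which differed by -0.38 (SE 0.09, adjusted p = 0.0465).

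NOP1 had a difference of -0.45 between its effects but a wider error (SE 0.17, adjusted p = 0.181). In the other direction NOB1 had a difference of 0.25 (SE 0.11, adjusted p = 0.234) and RRP9 one of 0.07 (SE 0.10, adjusted p = 0.748). With the replicate letter as a block 14 members passed in place of 4. Over all 6377 features the block gave 319 lower and 351 higher, in place of 159 and 214. From scanner intensities 0 members passed with limma, and 5 with normexp and 10 with print-tip loess had an unadjusted p under 0.05. Of the 4, only NAN1 passed whichever array was left out, with an adjusted p of at most 0.0402. The count fell to 1 without Epl1 1:380 replicate a, tagged Epl1 replicate a, deletion replicate a or Eaf1 1:982 replicate b, and to 2 without tagged Epl1 replicate b or Eaf1 1:982 replicate a.

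**Figure D4:**
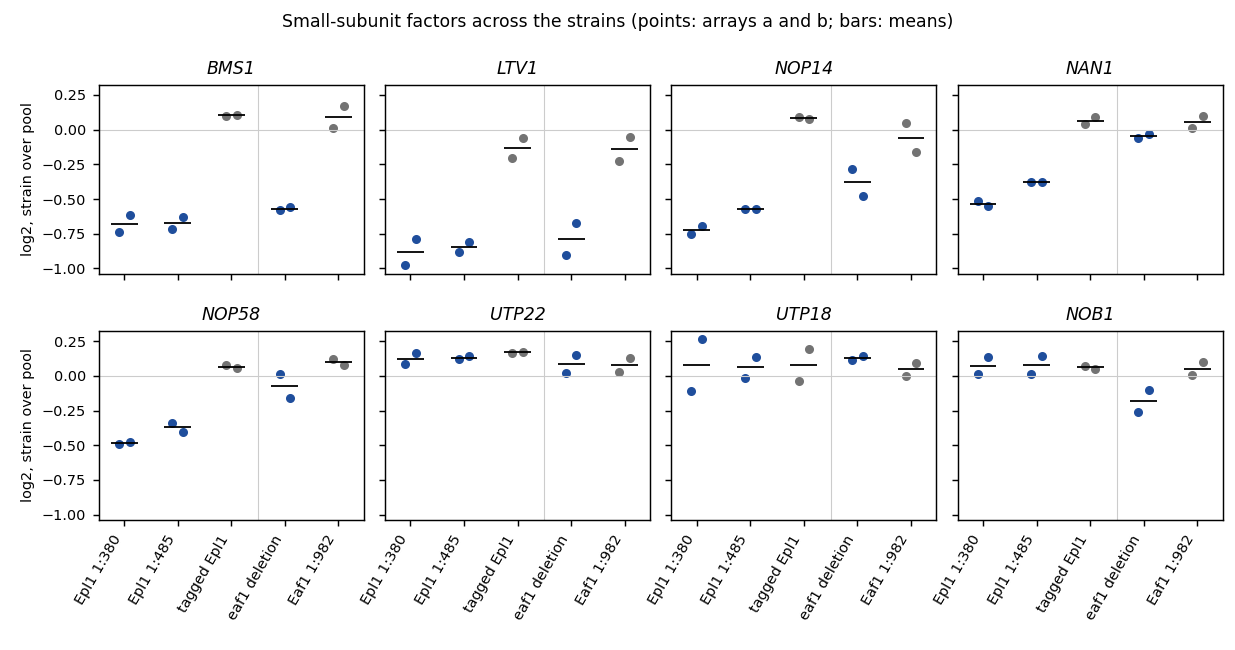
Log2 ratio of strain over pool on each array (points, a left and b right) with strain means (bars) for BMS1, LTV1, NOP14, NAN1, NOP58, UTP22, UTP18 and NOB1; blue points are mutant strains and grey points tagged strains. BMS1 and LTV1 are low in all 3 mutants, NAN1 and NOP58 mainly in the Epl1 truncations, UTP22 and UTP18 in none, and NOB1 in the eaf1 deletion.

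Between the tagged strains the members showed no difference that passed. In Eaf1 1:982 against tagged Epl1, 0 members passed with limma, with 0.0314% of all features lower and 0.0314% higher. An unadjusted p under 0.05 was held by 4 members, all lower, and by 218 of 6377 features, 118 of them lower. The difference was negative for 43 of 50 members and for 3149 of 6377 features. Its median over the members was -0.05, and it was 0.00 without Eaf1 1:982 replicate a. The arrays of Eaf1 1:982 lay below those of tagged Epl1 without overlap for 15 members, against 1026 of 6377 features. They lay above them for 2 members, against 1007 features. DHR2 was the lowest, with -0.31 and -0.06 in Eaf1 1:982, against 0.00 and 0.15 in tagged Epl1, a difference of -0.25 (SE 0.11). ENP2, which binds Bfr2, differed by -0.17, DBP8 by -0.16 and NOP14 by -0.14. The highest were NOP56 (0.09) and NOP1 (0.06). None of these member differences passed after adjustment. The targeted genes differed more between these strains: EPL1 was higher in Eaf1 1:982 by 0.62 (adjusted p = 0.0181), and EAF1 had a difference of 0.51 that did not pass (adjusted p = 0.15).

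Other genes of ribosome synthesis, from lists that hold no member, gave the surroundings of these falls. Of 35 other small-subunit factors, 25 were lower in Epl1 1:380, 20 in Epl1 1:485 and 16 in the deletion, and 1, 1 and 3 were higher, with medians of -0.33, -0.25 and -0.22. FAF1 (-0.91) and RRP8 (-0.90), an rRNA methyltransferase, were the lowest in Epl1 1:380. Of 66 large-subunit assembly factors, 53, 47 and 36 were lower in the same order of strains, with medians of -0.41, -0.35 and -0.27. CGR1 (-1.10) and RIX1 (-1.05) led among these in Epl1 1:380. Of all features 19.1%, 17.6% and 15.8% were lower. The members' medians of -0.54, -0.43 and -0.29 lay below those of both lists in each comparison, and the difference between lists was not tested.

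Of 15 genes of RNA polymerase I and its factors, 12 were lower in Epl1 1:380, 10 in Epl1 1:485 and 7 in the deletion, RRN5 with differences of -0.79, -0.77 and -0.19 and RPA135, the second-largest subunit, with -0.67, -0.61 and -0.33. Of 6 genes of box H/ACA snoRNPs, which make pseudouridine, 5, 5 and 1 were lower, CBF5 with differences of -0.59, -0.43 and -0.29 and NHP2 with -0.44, -0.33 and -0.14. The genes of the ribosomal proteins themselves had medians nearer to 0. Of 53 small-subunit ones, 7, 4 and 2 were lower and 0, 2 and 2 higher, with medians of -0.11, -0.10 and -0.06. Of 73 large-subunit ones, 12, 13 and 4 were lower and 0, 1 and 1 higher, with medians of -0.15, -0.16 and -0.07. Of all features 19.1%, 17.6% and 15.8% were lower, against 13.2%, 7.55% and 3.77% of the small-subunit and 16.4%, 17.8% and 5.48% of the large-subunit protein genes. RPS21B (-1.31, SE 0.30), RPL6A (-0.67, SE 0.21) and RPL18B (-0.60, SE 0.09) passed in Epl1 1:380, and RPS27B, with a wide error, did not (-0.61, SE 0.48). Paralogous pairs may share signal on these arrays. Of 14 genes of the exosome and its cofactors, 4, 3 and 2 were lower and 0, 0 and 1 higher. Among those lower were MTR4, the helicase that Utp18 recruits (-0.49, -0.47 and -0.35), and RRP6 (-0.30 in Epl1 1:380).

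Of 12 regulators of ribosome synthesis genes, 4, 4 and 1 were lower and 0, 0 and 1 higher, with medians of -0.14, -0.14 and 0.03. These were 33.3%, 33.3% and 8.33% lower, against 19.1%, 17.6% and 15.8% of all features, in a list of only 12. IFH1, a coactivator of ribosomal protein genes, differed by -0.43, -0.36 and -0.24, and passed in each. TOD6, a repressor that binds the PAC element of ribosome biogenesis genes, differed by -0.39 in Epl1 1:380, -0.29 in Epl1 1:485 and 0.23 in the deletion, the last without passing. Stress-induced genes were high where the members were low. Of 24, 24 were higher in Epl1 1:380, 24 in Epl1 1:485 and 22 in the deletion, with median differences of 1.95, 1.68 and 1.03. Of all features 21.7%, 19.4% and 17.8% were higher. HSP26, a small heat-shock protein gene, had log2 ratios of 3.61 and 3.23 in Epl1 1:380, against -0.22 and -0.45 in tagged Epl1. In the deletion it had 0.83 and 1.08, against -0.55 and -0.34 in Eaf1 1:982. HSP12, another heat-shock gene, differed by 2.66 in Epl1 1:380, 2.61 in Epl1 1:485 and 1.22 in the deletion. The part of the stress response in the members' falls was not tested.

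**Figure D5:**
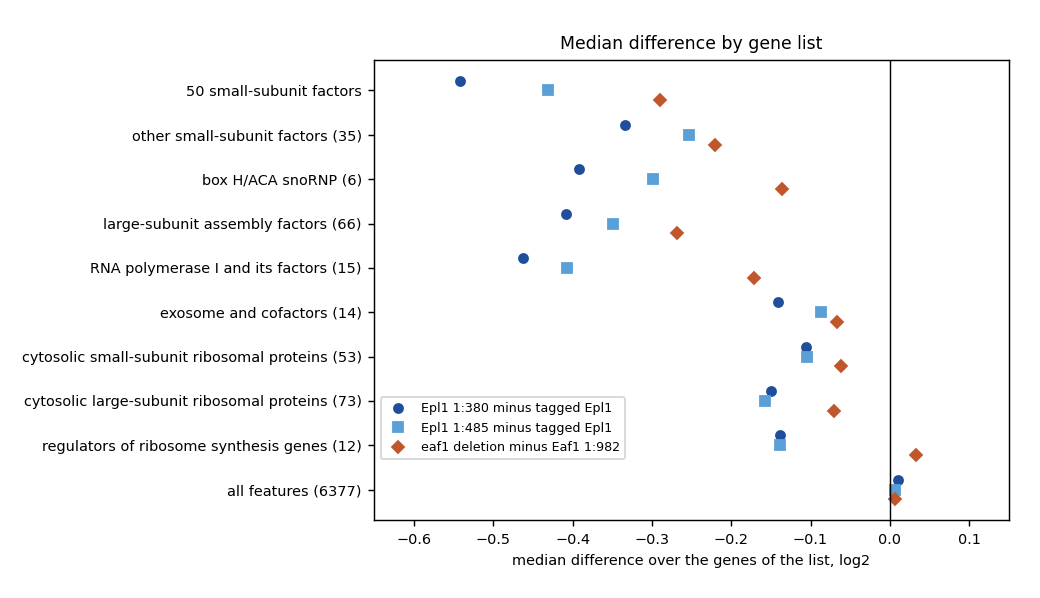
Median log2 difference over the genes of each list (number of genes in brackets) in 3 comparisons, with all features at the bottom. The 50 small-subunit factors have medians of -0.54, -0.43 and -0.29, other lists of ribosome assembly lie between them and 0, and the ribosomal protein genes lie near -0.1.

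In the genome the members were scattered. They lie on 13 of the 16 chromosomes, with at most 7 on one; 0 lie next to another member and 4 lie next to a listed gene of ribosome synthesis, against 6.15% of all protein-coding genes next to a member or listed gene. Their differences in Epl1 1:380 did not follow brightness: across the 50 members r between the difference and the mean signal was 0.02.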

How the data were processed

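Amplified, dye-labelled RNA of 5 strains was hybridised against a common pool on 10 arrays. Per the protocol text deposited with the series, the deposited matrix gives Cy5 over Cy3 as a log2 ratio, which the authors made from ImaGene scans by print-tip loess (span 0.4) without background subtraction and corrected for gene-specific dye bias. Per the file headers, the deposited raw files hold the intensity of signal and background of each spot, and these served for the alternatives. The direction was checked against ratios made from the intensities by print-tip loess (r from 0.702 to 0.992 per array, across all 6377 features).

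Replicate a columns were multiplied by -1 to give strain over pool, and spots were averaged per gene. A model with 1 coefficient per strain was fitted in limma 3.58.1 (R 4.3.3; lmFit, contrasts.fit, eBayes) over all 10 arrays, leaving 5 residual and adding about 4 prior degrees of freedom, with Benjamini-Hochberg adjustment over 6377 features. A gene passed at an adjusted p under 0.05, and was also counted past a fold of 1.7. The fit was tested on simulated data whose noise was independent between arrays. That test does not cover arrays that deviate together, as those described below do. Only 2 arrays per strain limit the precision. Arrays with the same replicate letter, which marks the dye orientation, deviated together (r from 0.294 to 0.563 over 10 strain pairs).

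The members and lists were chosen with earlier results of these data known. By rule, values were given for the 4 lowest and 2 highest members of each comparison, the lowest of each complex in Epl1 1:380, and, of each other list, the 2 genes with the largest difference there. EAF1 and EPL1 were named as targets; other members were named freely. All 50 symbols matched the gene table of the R64 assembly, used only for names, gene order and the number of codons. Promoter motifs were not analysed here. Figures were drawn with matplotlib 3.10.9.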

Additional observations from a re-analysis of the deposited data

Results flagged for a closer look

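For 4 members the effect of Epl1 1:380 (against tagged Epl1) and the effect of the eaf1 deletion (against Eaf1 1:982) differed by the test of the difference itself. NAN1 had effects of -0.60 and -0.10 and a difference of -0.50 on the log2 scale (adjusted p = 0.00712), and NOP14 had -0.81 and -0.32 and a difference of -0.49 (0.0464). PWP2 had effects of -0.69 and -0.28 and a difference of -0.41 (0.0417), and NOP58 had -0.55 and -0.17 and a difference of -0.38 (0.0465). With the replicate letter as a block the adjusted p were 0.00377 for NAN1, 0.0192 for NOP14, 0.0179 for PWP2 and 0.0178 for NOP58. From scanner intensities with normexp, the differences were -0.39, -0.41, -0.42 and -0.26 for NAN1, NOP14, PWP2 and NOP58, and none passed (adjusted p from 0.205 to 0.998). Groups of 2 arrays are too small to test for a single outlying array.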

How the results depend on the processing

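Counts of lower members are given in the order Epl1 1:380, Epl1 1:485, deletion, and difference of effects, against 45, 41, 32 and 4. Scanner intensities with normexp gave 29, 23, 12 and 0, and with print-tip loess 31, 28, 15 and 0. Centring on the added RNA controls gave 0 in each. The medians were then -0.38, -0.37, -0.12 and -0.18, and -0.0825 for Eaf1 1:982 minus tagged Epl1, and the median for Epl1 1:380 minus Epl1 1:485 changed sign to 0.027 (-0.06 relative to all features). The series' own limits, an unadjusted p under 0.01 with a fold over 1.7, gave 2, 1, 0 and 0. For the difference of effects, the replicate block gave 14, only the groups compared 2, leaving out dim features 1, centring on the gene median 2 and an adjusted p under 0.01 gave 1. The block moved no other count by over 1.5 times (46, 45 and 36). Over all 6377 features the block gave 1494, 1415, 1277 and 319 lower, in place of 1216, 1122, 1010 and 159. Trend and robust settings gave 45, 41, 32 and 5.

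Leaving out 1 array gave counts of 40 to 45, 32 to 38, 22 to 29 and 1 to 5. Medians ran from -0.56 to -0.52 in Epl1 1:380, from -0.29 to -0.26 in the deletion, from -0.26 to -0.18 for the difference of effects, from -0.1205 to -0.0538 between the truncations, and from -0.0887 to 0.0036 between the tagged strains, where the sign changed without Eaf1 1:982 replicate a. Among the named members, 94 of 630 values under the alternatives lost their call, 1 gained one, and 0 called values changed sign. The 630 include values of members without a call in the main fit, which had none to lose. The comparison of the truncations and that of the tagged strains, both with 0 calls, gave 84 values each. Of the 94, 47 were for the difference of effects, 30 for Epl1 1:380, 10 for the deletion and 7 for Epl1 1:485. The causes of these shifts were not tested. Promoter motifs could not be run. All member spot readings were above background; saturation was not tested.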
